A study of Daphnia magna with 16 samples.

Results

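Clone 17 is a clonal line of the water flea *Daphnia magna* in which both alleles of the tryptophan hydroxylase gene (TRH) carry CRISPR-Cas9 mutations, and it was compared here with wild type females. The comparison took all 4 arrays labelled clone 17 (genotype Clone 17 -/-) and all 4 labelled as wild type (genotype F +/+), which are 8 of the 16 arrays of the series, and every gene probe on them. The other 8 arrays belong to the mono-allelic mutant T+ (4 arrays) and to clone 16 (4 arrays), a separately obtained bi-allelic mutant. All 3 mutant lines were made from the wild type clone F, and all animals were females given no treatment in the labels. Each array holds the RNA of the whole body of 1 female, so the spread within a group is the spread between single animals. The labels give the age as both 4 and 5 days, whereas the methods describe adult females whose brood had been removed. A clonal line is 1 genotype, so that anything particular to how clone 17 was obtained cannot be told apart from the loss of TRH. The animals carry the replicate numbers 3, 5, 7 and 9 in every group, and values are given below in that order.

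Tryptophan hydroxylase makes the first and rate-limiting step from tryptophan to serotonin, the transmitter that in arthropods acts on growth, feeding and reproduction. Tryptophan that is not used for serotonin is mostly broken down through the kynurenine pathway, which tryptophan 2,3-dioxygenase opens. A daphnid grows by moulting, when a new exoskeleton of chitin and cuticular proteins is laid down under the old one, which is partly digested by chitinases. The mevalonate pathway builds isoprenoids from acetyl-CoA, and in arthropods it supplies the precursors of juvenile hormones.

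An array spot reads the fluorescence of labelled RNA bound to a probe for 1 transcript. Values are log2 signals after quantile normalization, which gives all arrays the same distribution, and a difference of 1 is a 2-fold change of signal. Of 51424 gene probes, 17286 were tested, namely those whose signal on 4 or more of the 16 arrays passed the 95th percentile of negative controls. A call needed an adjusted p below 0.05 (limma with Benjamini-Hochberg adjustment, two-sided) and a change of at least 1.5-fold. The number of probes that the scanner software found well above background was 12414 to 13283 on a clone 17 array, against 9888 to 13661 on a wild type array. No probe of TRH is named in the sources used here, so the targeted transcript could not be checked on the arrays. Most probes have no gene name in the files. Names come from supplementary lists of the study for 51 probes sorted by function, and these probes had been chosen by the study on the same animals. Gene models come from those lists and from the study's lists of changed probes. They are therefore known for 285 of the tested probes, which were also chosen on the same animals. In RNA of whole animals, fewer cells of a type and less RNA per cell cannot be told apart.

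The females of clone 17 did not form 1 group. With each probe centred on its mean over the 16 arrays, replicates 3, 7 and 9 correlated with each other at r = 0.64 to 0.91 over 17270 probes, whereas replicate 5 correlated with them at r = -0.74 to -0.58. Replicate 5 correlated with the clone 16 arrays at r = 0.52 to 0.77, while replicates 3, 7 and 9 correlated with those arrays at r = -0.83 to -0.61 and with T+ replicates 3, 7 and 9 at r = 0.50 to 0.89. These correlations are across probes of the same arrays and are given as a description. Replicate 5 lay outside the range of the other clone 17 arrays and at least 2-fold from their mean at 3875 probes (22.4% of those tested), 2134 of them lower and 1741 higher. The same count was 767 to 1212 probes for each of the other clone 17 arrays. The wild type arrays were not uniform either, with r = -0.20 to 0.58 among them and 26.2% of probes set apart in this way for wild type replicate 7.

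**Figure D1:**
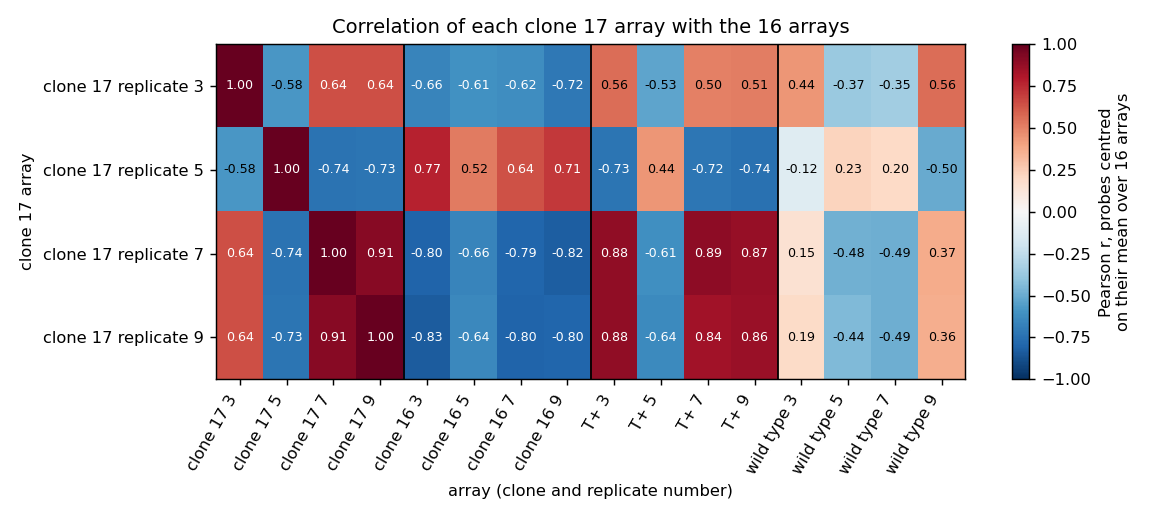
Pearson correlation (colour and printed value, probes centred on their mean over 16 arrays) of each clone 17 array (rows) with all arrays (columns, named by clone and replicate). Replicate 5 runs opposite to the other clone 17 arrays in nearly every column, with r of -0.74 to -0.58 against them.

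The array that stood apart most in each clone was at the same place on its slide, but other arrays stood apart too. Wild type replicate 3, at position 1, had 16.6% of probes set apart. In clone 16, replicate 7 at position 2 had 6.43%, close to that of replicate 5. Replicate 5 of clone 17, replicate 5 of T+, replicate 5 of clone 16 and replicate 7 of the wild type were hybridised at position 4 of the row, and in each clone this was the array with the largest share of probes set apart (22.4%, 19.3%, 7.57% and 26.2% of those tested). All but the wild type array also carry the number 5, so that position, number and animal cannot be told apart. The place of wild type replicate 7 was read from its spot coordinates, since that array came without a header, and its slide is unknown. Position 1 held replicate 7 of clone 17 and replicates 3, 5 and 9 of the wild type. Their part in the differences is given below by values within a position. The counts of calls in each comparison are given with and without replicate 5.

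Against the wild type, 67 probes were lower in clone 17 (0.388% of those tested) and 6 were higher (0.0347%), a share of 91.8% for decreases. This balance did not hold under every treatment of the arrays. With array weights 378 were lower and 560 higher, with position 1 as a block 54 and 57, and with all 4 arrays at position 4 left out 314 and 436, while only the arrays compared gave 20 and 0. Without replicate 5, 121 probes were lower (0.7%) and 26 higher (0.15%). At an unadjusted p below 0.05 the numbers were 518 lower and 966 higher with all arrays, and 805 lower and 1296 higher without replicate 5. Of the 67 lower probes, 66 were also called without replicate 5, and 5 of the 6 higher ones. The calls therefore kept their members while the list grew, by 55 lower and 21 higher probes.

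The median change of the 67 lower probes was -2.92 on the log2 scale. The changes ran from -6.25 to -1.02, and 52 of the 67 were at least 4-fold. The median differences from the wild type mean were -2.32, -2.57, -3.18 and -3.16 in the clone 17 females, against 0.12, -0.10, -0.32 and 0.26 in the wild type females. Replicate 5 was below all 4 wild type animals at each of these 67 probes, so it shared these decreases. All 67 were also lower within slide 1 (median -3.25), within slide 2 (-2.82), within position 1 (-3.53) and within position 4, where replicate 5 stood against wild type replicate 7 (-2.28). On slide 2 the only known wild type array was replicate 9, and at position 1 the only clone 17 array was replicate 7. The probes were called on these animals, which favours the count of 67 in each. On 26 of the 67, no clone 17 array was well above background, and 28 were well above background on all 8 arrays. Of 73 called probes, 71 had no overlap between the 4 clone 17 and the 4 wild type animals, against 3.8% of all tested probes. Calling on the same animals favours this count too, so it is no separate evidence. In the other mutants, whose comparisons share the same wild type arrays, the median change of these 67 probes was -3.42 in T+ and -2.59 in clone 16. The study's own list for this clone, made on the same animals, holds 64 of them. That list has 262 probes, 229 of them tested here. Of the tested ones 227 had a lower mean, but only 64 were called lower (101 without replicate 5).

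A further 55 probes were called lower only without replicate 5. They were selected by a call that replicate 5 removes, so that its nearness to the wild type is given as a description, and likewise for the higher probes. Their median differences from the wild type mean were -2.07, -0.42, -2.87 and -2.96 in the clone 17 females. Replicate 5 was inside or above the wild type range at 30 of them and lay between the other clone 17 arrays and the wild type at the other 25. The 21 probes called higher only without replicate 5 had medians of 1.74, 0.14, 2.82 and 2.89 in the clone 17 females, and replicate 5 was inside or below the wild type range at 13. In T+ these 55 and 21 probes had median changes of -2.80 and 2.24, and in clone 16 of -0.92 and 0.17.

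**Figure D2:**
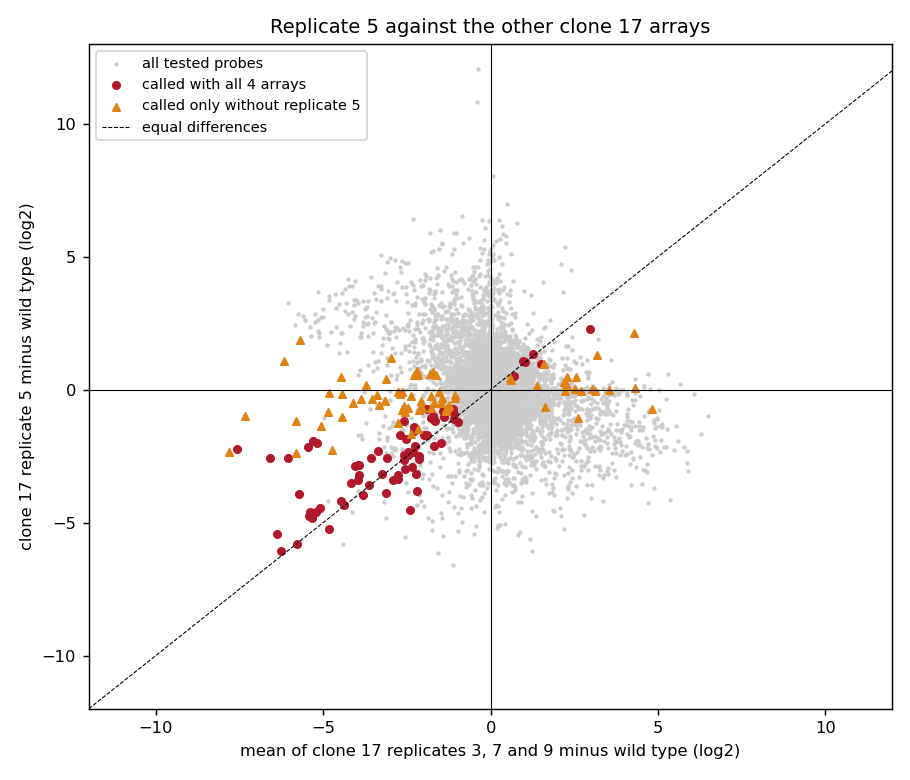
Each point is a tested probe, with the mean of clone 17 replicates 3, 7 and 9 minus the wild type mean on the x axis and replicate 5 minus the wild type mean on the y axis (both log2). At the 67 probes called lower with all 4 arrays replicate 5 is below the wild type mean, at least 2-fold above the other clone 17 females on 14 and at least 2-fold below them on 2. Those called lower only without it have a median of -0.42 on the y axis.

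Of the 51 probes sorted by function, 45 were tested, 41 of these had a lower mean in clone 17, and 10 were called lower and none higher (17 lower and none higher without replicate 5). Over all 17286 tested probes, 6788 had a lower mean, 0.388% were called lower, and 0.7% without replicate 5. Their median change was -1.43, against 0.07 over all tested probes. Since the study chose these probes for their changes in the same animals, neither the count nor the median is independent evidence of the direction.

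Hydroxymethylglutaryl-CoA synthase was called lower on all tested probes that the study's lists name for it. It condenses acetyl-CoA with acetoacetyl-CoA at the entry to the mevalonate pathway. Gene model Dapma7bEVm000199 is read by 4 tested probes of those lists, which the study chose on the same animals. Any other probe of the gene would have no name here. The largest of the 4 changes, on probe CUST_5069_PI429715507, rested on 7.26, 7.73, 6.88 and 6.87 in clone 17, against 8.84, 8.75, 8.82 and 8.76 in the wild type. The means were 7.18 ± 0.41 in clone 17 and 8.79 ± 0.05 in the wild type (SD, n = 4 each), so that the clone 17 females were well below a narrow wild type range. The change was -1.61 ± 0.20 (SE), a 3.05-fold decrease (limma, adjusted p = 0.00255), and -1.79 ± 0.18 without replicate 5 (adjusted p = 0.00057). Replicate 5 had the highest of the clone 17 values on each of the 4 probes, and still lay below all wild type animals. The other 3 probes changed by -1.53, -1.29 and -1.27 (limma, adjusted p = 0.00355, 0.00752 and 0.00386), and all 4 were well above background on every array. Their agreement is that of probes for 1 transcript model, not of separate genes.

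Hydroxymethylglutaryl-CoA reductase, the next enzyme and the main control point of the pathway in animals, had a higher mean in clone 17. Its probe read 6.14, 3.84, 6.91 and 6.73 in clone 17, against 4.70, 4.57, 3.80 and 4.04 in the wild type. It was well above background on clone 17 replicates 3, 7 and 9 only, and replicate 5 was at the wild type level. The change of 1.63 ± 0.66 (SE) was not called (limma, adjusted p = 0.50), nor was that of 2.32 ± 0.53 without replicate 5 (adjusted p = 0.077). No wild type array was well above background, so the fold is a bound from the group means. It was 1.36-fold higher with all arrays and 2.19-fold without replicate 5, as a description and not a confidence limit. Acetyl-CoA acetyltransferase, which forms acetoacetyl-CoA, was too dim to be tested, with 3.76, 4.82, 3.76 and 3.74 in clone 17, against 5.18, 6.51, 5.76 and 6.47 in the wild type. The probes of phosphomevalonate kinase and diphosphomevalonate decarboxylase, which act later in the pathway, were not well above background on any of the 8 arrays.

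Among 14 tested probes for lipid and fatty acid metabolism, 1 was called lower, and 4 without replicate 5, where the shares of all tested probes were 0.388% and 0.7%. Phospholipase A2, which releases fatty acids such as arachidonic acid from membrane lipids, read 5.09, 4.81, 3.66 and 3.65 in clone 17, against 9.37, 7.37, 7.47 and 9.05 in the wild type. None of the clone 17 values was well above background and all of the wild type ones were. The signal was at least 9.27-fold lower in clone 17, and the fitted change was -4.01 ± 0.53 (limma, adjusted p = 0.00355). A bound is given in this way where no array of a group was well above background, from the means of the normalized values with each dim array taken at no less than the lowest signal among its probes well above background. Without replicate 5 the bound was 8.67-fold and the fitted change -4.18 (adjusted p = 0.0048), so this probe hardly depended on that female.

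Other lipid genes did depend on it. A fatty acid hydroxylase domain containing protein, of a family that acts on sterols and fatty alcohols, has 2 probes on gene model Dapma7bEVm010304. The first read 7.97, 9.01, 6.89 and 6.94 in clone 17, against 9.21, 10.41, 10.21 and 9.50 in the wild type. Replicate 5 came closest to the wild type, and the change was -2.13 (limma, adjusted p = 0.11) with it and -2.57 (adjusted p = 0.018) without it. The second probe changed by -2.01 (adjusted p = 0.19) and by -2.46 without replicate 5 (adjusted p = 0.042). A probe named as transforming growth factor beta-induced, an extracellular matrix protein that the study's list counts here, read 4.53, 7.58, 4.16 and 4.50 in clone 17, against 7.29, 8.54, 8.74 and 7.22 in the wild type. Only replicate 5 was well above background in clone 17 and it lay inside the wild type range, so the probe was called lower only without it (at least 6.71-fold, limma, adjusted p = 0.037).

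Elongases add carbons to very long chain fatty acids. The probe of ELOVL fatty acid elongase 4 read 6.38, 3.62, 3.66 and 4.56 in clone 17, against 7.66, 6.57, 6.23 and 7.24 in the wild type, and its change of -2.37 ± 0.55 (SE) was not called (limma, adjusted p = 0.11). A 4-like elongase read 9.82, 9.60, 9.41 and 9.39 in clone 17, against 9.81, 9.72, 9.81 and 9.85 in the wild type, a difference of -0.24. Replicate 3 was the clone 17 female closest to the wild type on both probes. The remaining fatty acid hydroxylase probe, on gene model Dapma7bEVm004383, had a higher mean in clone 17 (7.67, 7.09, 8.51 and 8.22, against 6.46, 6.43, 5.62 and 7.29 in the wild type), with a change of 1.43 that was not called (limma, adjusted p = 0.52).

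**Figure D3:**
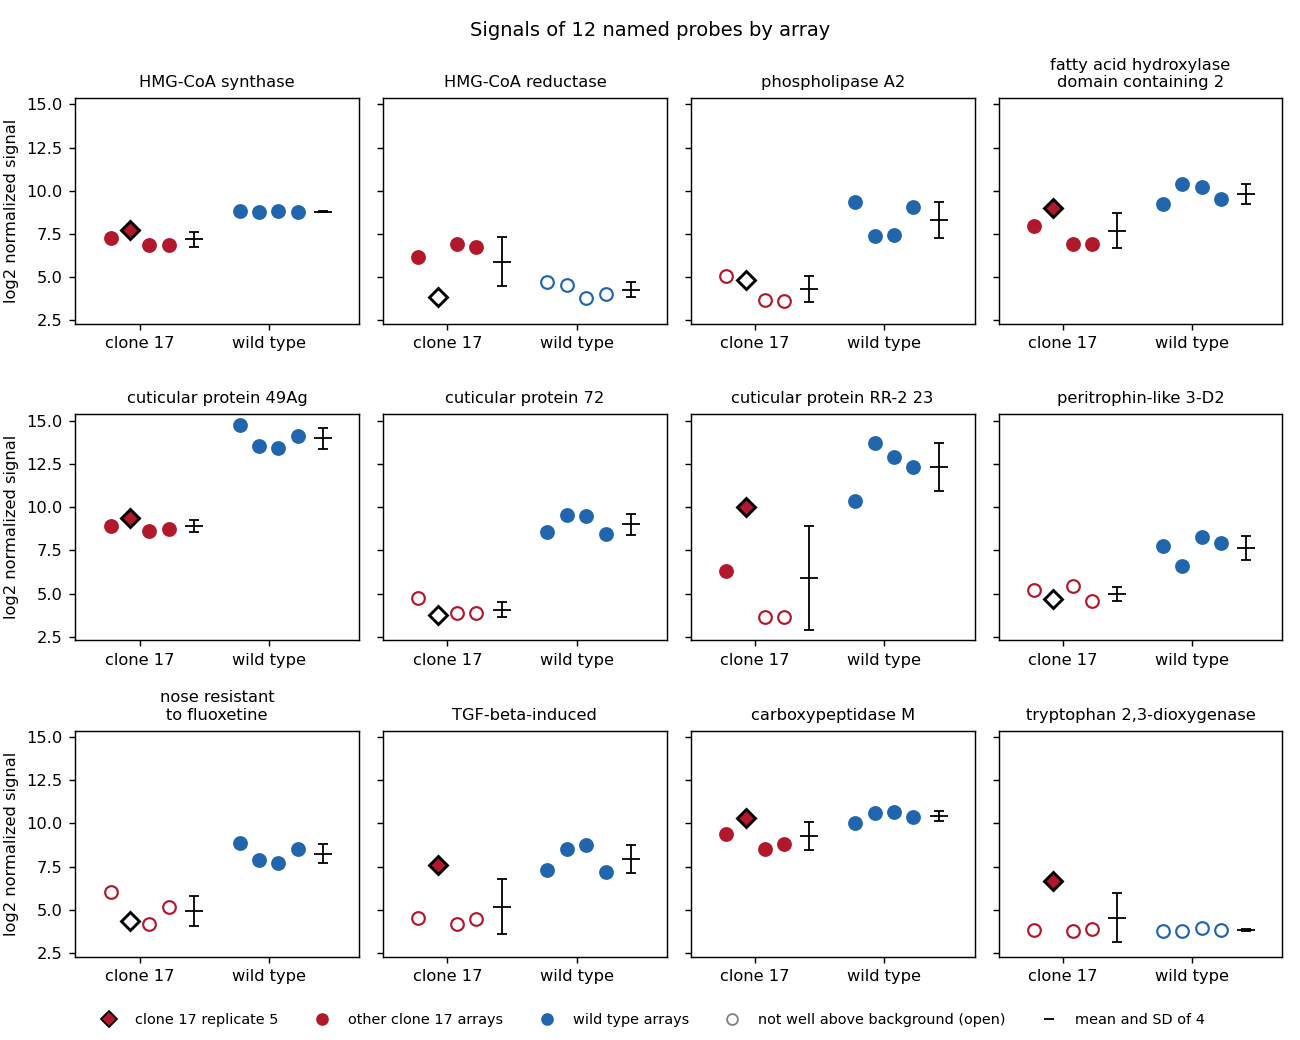
Log2 normalized signals of 12 named probes in each clone 17 female (left) and each wild type female (right), replicates 3, 5, 7 and 9 from left to right, with the mean and SD of 4 as a bar. Clone 17 replicate 5 is the outlined diamond and open symbols are not well above background. It sits with its group for cuticular protein 49Ag and 72, and apart from it for cuticular protein RR-2 23 (9.98, against 3.64 to 6.28 in the others).

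The 11 probes for constituents of the cuticle had the largest median change of the functional lists, -4.12, and -4.46 without replicate 5. Of these, 3 were called lower with all arrays and 6 without replicate 5, where the shares of all tested probes were 0.388% and 0.7%. The study had chosen these probes on the same animals. The gene model of cuticular protein 49Ag (Dapma7bEVm009931) has 3 tested probes in the study's lists, with changes of -5.06 to -1.55. The probe with the largest change read 8.92, 9.37, 8.64 and 8.71 in clone 17, against 14.78, 13.56, 13.42 and 14.14 in the wild type. It was well above background on all 8 arrays. The 33.4-fold decrease (-5.06 ± 0.66, limma, adjusted p = 0.00348) was larger than any spread within a group, at 8.91 ± 0.33 in clone 17 and 13.97 ± 0.62 in the wild type (SD, n = 4 each). A cuticular protein 72 precursor (gene model Dapma7bEVm005358) read 4.72, 3.78, 3.88 and 3.89 in clone 17, against 8.54, 9.53, 9.50 and 8.43 in the wild type. It was not well above background on any clone 17 array and was at least 17.8-fold lower, with the smallest adjusted p of the named probes (limma, 5.23e-07). The other cuticular protein 72 probe (Dapma7bEVm018552) read 7.63, 5.76, 4.22 and 4.61 in clone 17, against 10.94, 9.10, 8.71 and 11.06 in the wild type, and changed by -4.39 (adjusted p = 0.034). Its call was the least stable of the 3, and was lost under 16 of 32 alternatives.

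A further 3 cuticle probes were lower in every clone 17 female than in any wild type female and were called only without replicate 5, which carried the highest clone 17 value of each. Of all 17286 tested probes, 310 were lower in every clone 17 female than in any wild type female. RR-2 proteins are cuticular proteins with the chitin-binding consensus found mostly in stiff cuticle of insects. The RR-2 family member 23 precursor on gene model Dapma7bEVm001220 read 6.28, 9.98, 3.66 and 3.64 in clone 17, against 10.38, 13.69, 12.91 and 12.32 in the wild type. Its change was -6.43 (limma, adjusted p = 0.099) with all arrays and -7.80 (adjusted p = 0.014) without replicate 5. Cuticular protein 50Cb (Dapma7bEVm002510) read 5.97, 8.11, 3.61 and 3.66 in clone 17, against 9.34, 9.60, 9.89 and 9.13 in the wild type, and changed by -5.08 without replicate 5 (adjusted p = 0.027). A second RR-2 member read 4.82, 7.03, 4.26 and 4.60 in clone 17, against 8.69, 10.14, 9.94 and 8.42 in the wild type. In these 3 the clone 17 females were ordered alike, with replicate 5 highest and replicate 3 next.

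Other cuticle probes put the same female at the opposite end. A cuticle protein on gene model Dapma7bEVm002950 read 15.54, 9.59, 13.40 and 13.45 in clone 17, against 16.16, 12.27, 12.04 and 15.48 in the wild type. Cuticular protein hypothetical 28 read 14.52, 9.78, 13.30 and 13.23 in clone 17, against 15.00, 11.77, 11.49 and 14.84 in the wild type. The groups overlapped on both, and the changes of -0.99 and -0.57 were not called (limma, adjusted p = 0.90 and 0.95). Replicate 5 was 23.2-fold and 15.0-fold below the mean of the other clone 17 females there. The wild type females were themselves divided, replicates 3 and 9 being high and replicates 5 and 7 low. The other 50Cb probe (Dapma7bEVm009626) read 12.13, 7.19, 9.19 and 9.22 in clone 17, against 13.70, 11.82, 11.97 and 13.42 in the wild type. Over the 11 cuticle probes, replicate 5 was the lowest clone 17 female on 6 and the highest on 4.

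Of 12 probes for chitin and amino sugar metabolism, 10 were tested and all 10 had a lower mean in clone 17, with a median change of -0.67 (-0.47 without replicate 5). One was called. It is named as a cuticular protein analogous to peritrophins 3-D2, of a family with chitin-binding domains, and read 5.21, 4.67, 5.43 and 4.57 in clone 17, against 7.75, 6.62, 8.28 and 7.91 in the wild type. No clone 17 array was well above background, and the signal was at least 5.40-fold lower (limma, adjusted p = 0.018). The call was lost under 7 of 32 alternatives. A peritrophin-1 precursor on the same gene model, too dim to be tested, read 4.21, 4.25, 3.84 and 3.84 in clone 17, against 6.56, 5.45, 7.80 and 6.54 in the wild type. The peritrophin-like 1-F probe read 9.44, 4.37, 4.22 and 4.50 in clone 17, against 9.85, 8.10, 8.64 and 10.15 in the wild type, so that replicate 3 alone was at the wild type level. Replicate 5 was the lowest clone 17 female on 8 of the 10 probes, unlike on the hydroxymethylglutaryl-CoA synthase probes.

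Chitinases cut the chitin of the old cuticle. The 4 chitinase probes of gene model Dapma7bEVm014956 changed by -0.51 to -0.41 and none was called. The chitotriosidase-1 probe read 8.71, 7.35, 7.55 and 8.10 in clone 17, against 8.40, 8.50, 8.44 and 8.38 in the wild type. The clone 17 females spread over a wider range than the wild type, on both sides of it.

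Genes named nose resistant to fluoxetine are known from *Caenorhabditis elegans*, where mutants resist the nose contraction caused by that serotonin reuptake inhibitor, and they encode membrane proteins. The 3 listed probes, chosen by the study on the same animals, had no overlap, each clone 17 female being below each wild type female. The same held for 310 of all 17286 tested probes. The probe of gene model Dapma7bEVm005479 read 6.03, 4.35, 4.18 and 5.15 in clone 17, against 8.89, 7.86, 7.71 and 8.53 in the wild type. It was not well above background in clone 17 and was at least 8.76-fold lower (limma, adjusted p = 0.00418). A probe of gene model Dapma7bEVm001105 read 8.66, 5.99, 7.51 and 7.47 in clone 17, against 10.11, 9.10, 9.12 and 10.13 in the wild type, and its change of -2.21 was not called (adjusted p = 0.24). Replicate 5 was the lowest female there.

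Tryptophan 2,3-dioxygenase was read above background in a single clone 17 animal. Its probe read 3.82, 6.67, 3.80 and 3.87 in clone 17, against 3.76, 3.80, 3.94 and 3.85 in the wild type. Replicate 5 was the only one of the 8 arrays on which it was well above background. The change was 0.70 with all arrays (limma, adjusted p = 0.86) and -0.0073 without replicate 5. Kynurenine formamidase, which takes the next step of the pathway, was not well above background on any of the 8 arrays and was not tested. Carboxypeptidase M, a membrane peptidase that trims the ends of peptides, read 9.38, 10.34, 8.53 and 8.79 in clone 17, against 10.05, 10.62, 10.67 and 10.39 in the wild type. It was called lower only without replicate 5 (-1.53, limma, adjusted p = 0.015).

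**Figure D4:**
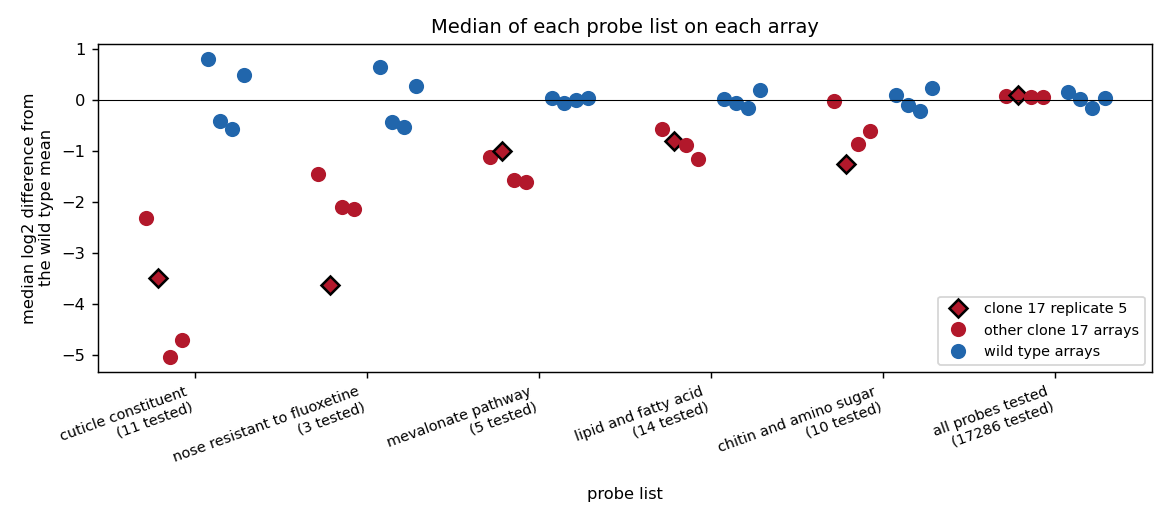
Median log2 difference from the wild type mean over the tested probes of each functional list and over all tested probes, for each clone 17 array (left, replicate 5 as an outlined diamond) and each wild type array (right), replicates 3, 5, 7 and 9 from left to right. The cuticle list is at -2.32, -3.50, -5.04 and -4.70 in the clone 17 females, and all tested probes lie between 0.05 and 0.09.

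Most of the largest changes fell on probes for which the sources give at most a gene model without a name. Gene model Dapma7bEVm002059 had 4 tested probes in the study's lists, all called lower, with changes of -6.25 to -1.60. Among them was the largest decrease of the calls made with all arrays. That probe read 4.10, 9.24, 3.79 and 3.74 in clone 17, against 10.56, 11.91, 11.81 and 11.57 in the wild type. It changed by -6.25 (limma, adjusted p = 0.023) with all arrays. Without replicate 5 no clone 17 array was well above background, and the signal was at least 77.0-fold lower (adjusted p = 0.00057). Replicate 5 was well above background and yet below the wild type. The probe of Dapma7bEVm000518 gave the cleanest separation. It read 3.70, 3.72, 3.70 and 3.73 in clone 17, none well above background, against 8.82, 9.65, 9.76 and 9.80 in the wild type, and was at least 25.6-fold lower (adjusted p = 0.000108). A probe of Dapma7bEVm003788 read 5.53, 4.55, 3.86 and 3.71 in clone 17, against 10.40, 10.94, 10.84 and 10.30 in the wild type, at least 47.8-fold lower (adjusted p = 0.000178). Replicate 5 was with its group on these last probes.

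Several listed probes of 1 model moved together. Gene models are known only for probes that the study listed on these animals, 285 of the 17286 tested, among them all 67 called lower. An unchanged probe outside those lists would not be counted, so the lists favour such agreement. All 7 tested probes listed for Dapma7bEVm000421 were called lower (changes of -4.62 to -2.48). So were all 3 of Dapma7bEVm028414 (-5.18 to -4.36), Dapma7bEVm010788 (-3.22 to -2.97) and Dapma7bEVm002601 (-2.55 to -2.44). Cuticular protein 49Ag, on Dapma7bEVm009931, had 2 of 3 probes called, with changes of -5.06 to -1.55 over the 3. On Dapma7bEVm011744 and Dapma7bEVm000611, both tested probes were called only without replicate 5.

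The increases were smaller and fewer. The largest called one, on probe CUST_110160_PI429715507, which the sources used here do not pair with a gene, read 7.80, 7.36, 8.04 and 8.37 in clone 17, against 7.05, 4.45, 3.61 and 5.26 in the wild type. Its change was 2.80 ± 0.54 (SE; limma, adjusted p = 0.037), and the wild type spread was wider than that of clone 17. The 6 increases ran from 0.66 to 2.80, and 1 of the 6 was on a probe that stayed near background in all females of both groups. Of the 26 probes called higher without replicate 5, 17 were not well above background on any wild type array. The largest of them, on probe CUST_57632_PI429715507, read 7.92, 3.75, 10.18 and 9.80 in clone 17, against 4.92, 3.75, 3.96 and 5.23 in the wild type, at least 12.8-fold higher without replicate 5 (adjusted p = 0.039). Replicate 5 was not well above background there.

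On some probes replicate 5 alone among the clone 17 females was high or low. The probe with the widest gap read 16.14 in replicate 5 and 3.68 to 3.72 in the other clone 17 females, against 3.66 to 5.26 in the wild type. In clone 16 it read 15.27 in replicate 3 and 7.60 in replicate 9. In the other direction, a probe that replicate 5 read at 3.71 stood at 12.58, 13.62 and 13.45 in the other clone 17 females, against 11.44, 6.15, 3.67 and 10.19 in the wild type. Neither differed between the groups (limma, adjusted p = 0.84 and 0.81), and both were chosen for the gap.

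The number of differences between clone 17 and clone 16 turned on replicate 5. Against clone 16, 1 probe was called (0.00579% of those tested) with all arrays, and 1792 (10.4%) without replicate 5, 822 lower and 970 higher in clone 17. At an unadjusted p below 0.05 there were 1250 lower and 1514 higher with all arrays, and 1997 lower and 1859 higher without replicate 5. The 1 call was on gene model Dapma7bEVm019270, which was not well above background in clone 17, with a difference of -4.85 from clone 16 (limma, adjusted p = 0.000487). Against T+, 5 probes were called (0.0289%), 3 lower and 2 higher, and 2 (0.0116%) without replicate 5. At an unadjusted p below 0.05 there were 288 lower and 261 higher, and 199 lower and 218 higher without replicate 5. Of the 67 probes lower than in the wild type, only that of Dapma7bEVm015925 was among these 5. It read 8.53, 8.33, 8.25 and 7.68 in clone 17, against 9.32, 10.38, 9.98 and 10.50 in the wild type (limma, adjusted p = 0.013), and the difference of clone 17 from T+ was -2.28 on the log2 scale (adjusted p = 0.017, and 0.061 without replicate 5).

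Of the 45 tested probes with a named function, 0 were called against clone 16 with all arrays by limma (0.00579% of all tested probes). Without replicate 5, 12 were called (4 lower and 8 higher in clone 17), where the share of all tested probes was 10.4%. An unadjusted p below 0.05 was found for 16 and 23 of the 45. Over all 17286 tested probes it was found for 1250 lower and 1514 higher, and for 1997 and 1859 without replicate 5. Against T+, 0 were called by limma with or without replicate 5 (0.0289% and 0.0116% of all tested probes). In each fit 10 had an unadjusted p below 0.05. Over all tested probes there were 288 lower and 261 higher, and 199 and 218 without replicate 5. The values that follow are with all arrays unless stated. Hydroxymethylglutaryl-CoA synthase was -0.54 in clone 17 against clone 16 on its first probe, with a 95% interval of -0.97 to -0.12 and an adjusted p of 0.23 (limma). Without replicate 5 it was -0.73 on that probe and -0.72 on another (limma, adjusted p = 0.025 and 0.027), both called. Its remaining probes differed by -0.47 and -0.34 without replicate 5 and were not called (limma, adjusted p = 0.079 and 0.42). Phospholipase A2 differed by 0.13 with an interval of -1.02 to 1.27, and cuticular protein 49Ag by -0.85 with an interval of -2.27 to 0.56. The narrowest interval among the called cuticle probes was that of cuticular protein 72 (Dapma7bEVm005358), 0.16 with a range of -0.40 to 0.72. Every clone 17 and clone 16 female read that probe near background, so its interval cannot show how close the clones are. Among the females of these clones, only clone 16 replicate 7 read phospholipase A2 well above background, so the same limit holds for it. A miss of the threshold does not show that the clones were alike. The chitotriosidase-1 probe was 1.27 higher in clone 17 than in T+ (interval 0.72 to 1.81), with an adjusted p of 0.30.

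**Figure D5:**
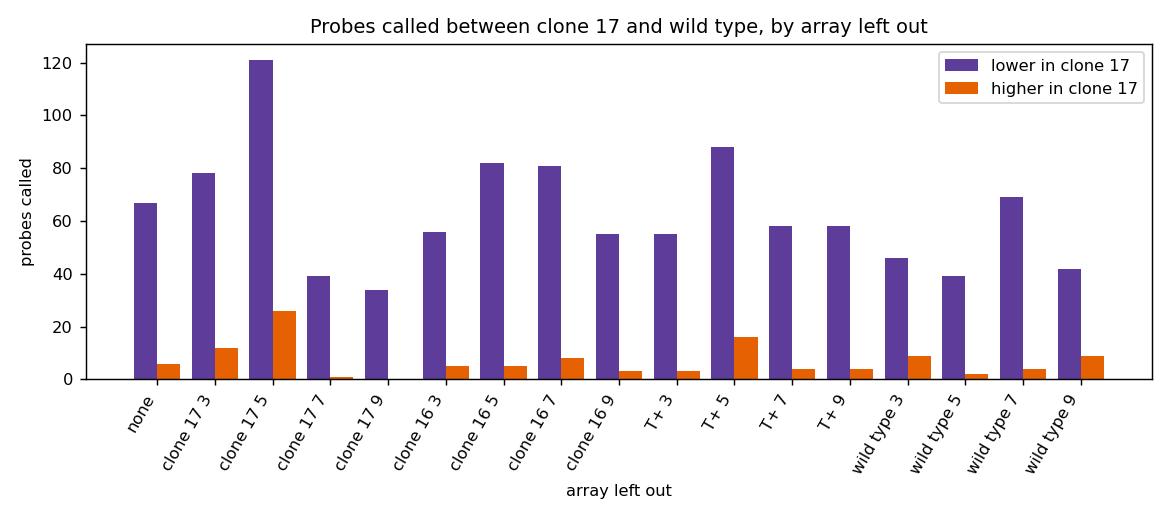
Number of probes called lower and higher in clone 17 than in the wild type when no array (left) or 1 of the 16 arrays is left out. Leaving out clone 17 replicate 5 gives the most calls (121 and 26), and leaving out clone 17 replicate 9 the fewest (34 and 0).

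How many probes were called depended on single animals in both groups. Leaving out 1 array at a time gave 34 to 121 lower and 0 to 26 higher probes. Clone 17 replicates 7 and 9 lowered the count most when left out (39 lower and 1 higher, and 34 lower and 0 higher), followed by wild type replicate 5 (39 and 2) and wild type replicate 9 (42 and 9). The calls of the cuticular protein 49Ag probe described above and of cuticular protein 72 (Dapma7bEVm005358) held under all 32 alternatives. Those of phospholipase A2 and of the 4 hydroxymethylglutaryl-CoA synthase probes held under 31 of 32.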

How the data were processed

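Total RNA of single females was labelled with 1 dye and hybridised to 16 Agilent arrays. The authors deposited for every spot the processed intensity of Agilent Feature Extraction (version 10.5 per the labels, 10.5.1.1 in the file headers), background-corrected but not normalized between arrays, and a table of normalized log2 values, which lay within 0.01 of quantile-normalized log2 signals centred on each probe's median for 77.2% (wild type replicate 7) to 99.1% of probes per array and served as an alternative. Wild type replicate 7 came without a header and with signals rounded to 3 significant digits.

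Here the processed signals (floor of 1) had control spots left out and outlier spots set missing, and were turned to log2, averaged over repeated spots and quantile normalized. limma 3.58.1 in R 4.3.3 fitted 1 model without a block to all 16 arrays, so that the other mutants share the estimate of the spread, with two-sided moderated tests adjusted over 17286 probes, a threshold of 0.05 and a limit of 1.5-fold. Every adjusted p in the text is from these fits. The fits were tested on simulated data. The number of arrays limits the precision.

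Named were the probes that supplementary lists sort by function, and by size the called probes without overlap that changed most and those on which clone 17 replicate 5 lay farthest from the other females. The members and lists were chosen with earlier results of these data known. Alternatives covered scaling to the 75th percentile, normexp (offset of 50, on median signals), the deposited table, both filters, outlier spots kept, only the arrays compared, slide, position and replicate blocks, array weights, a variance trend, the methods' own ANOVA and Dunnett procedure (mvtnorm 1.3.3), other fold limits and each array left out. Probe sequences and genome positions were not used here.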

Additional observations from a re-analysis of the deposited data

Results flagged for a closer look

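Among 64 named or selected probes, 12 values lay so far from the other 3 females of their group that the gap passed Dixon's 95% critical value for 4 samples. Chance flags about 1 group in 20, and 128 groups were examined. These groups were read on the same arrays and some probes share a gene model, so the flags are not independent. Some probes had also been selected by calls made without clone 17 replicate 5, and the rate of 1 in 20 does not hold for its flags on them. Of the 12, 10 were in clone 17, 6 of them from replicate 5. Replicate 5 stood high for tryptophan 2,3-dioxygenase (6.67, against 3.80 to 3.87 in the other clone 17 females), for the transforming growth factor beta-induced probe (7.58, against 4.16 to 4.53) and for both outlying probes of Dapma7bEVm002059 (9.24, against 3.74 to 4.10, and 7.85, against 3.78 to 3.91). It stood low on a pair of unnamed probes that rose without it (3.67, against 6.53 to 7.09, and 3.77, against 6.45 to 7.00). Clone 17 replicate 3 stood high for the peritrophin-like 1-F (9.44, against 4.22 to 4.50) and 1-E (10.39, against 8.10 to 8.34) probes and for cuticular protein 72 (4.72, against 3.78 to 3.89, all near background), and low on an unnamed probe higher in clone 17 (6.45, against 6.81 to 6.87). In the wild type, replicate 3 was low for Dapma7bEVm000518 (8.82, against 9.65 to 9.80) and replicate 9 was high on an unnamed probe near background (3.93, against 3.64 to 3.67).

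A set of 6 differences between clone 17 and another mutant passed the test of the difference (limma). Against T+ they were -4.04 on Dapma7bEVm011064 (adjusted p = 0.00443) and -1.89 on an unnamed probe (adjusted p = 0.0325), both not well above background in clone 17, then -2.28 on Dapma7bEVm015925 (adjusted p = 0.0166), and 1.54 and 1.09 on the probes of Dapma7bEVm015932 (adjusted p = 0.00782 and 0.0294). Against clone 16 the difference was -4.85 on Dapma7bEVm019270 (adjusted p = 0.000487).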

How the results depend on the processing

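The counts moved more with the animals and the treatment of the outlying arrays than with normalization. With all arrays, 67 probes were lower and 6 higher. Only the arrays compared gave 20 lower and 0 higher (41 higher with clone 17 replicate 5 also left out), and array weights gave 378 and 560. The number of higher probes was 3 with the ANOVA and Dunnett's test, 3 when slides were fitted as a block, 3 when dim probes were kept, and 57 when position 1 was fitted as a block. Leaving out 1 array gave 34 to 121 lower and 0 to 26 higher, 1 to 1792 against clone 16 (405 without T+ replicate 5) and 1 to 6 against T+. Against clone 16 the count was 2 with no background filter and 13 with only the arrays compared, and against T+ it was 2 with only the arrays compared. The replicate numbers paired clone 17 with the wild type only in part (correlations of deviations of 0.24, 0.46, -0.35 and 0.53). Clone 17 replicates 5 and 9 correlated best with the wild type array of their own number, and replicates 3 and 7 with wild type replicate 9. With the replicate block there were 42 lower and 3 higher probes, 6 against clone 16 and 3 against T+. Under normexp the medians of the cuticle list (-2.64) and of the lipid list (-0.59) were closer to 0. The tryptophan 2,3-dioxygenase change was -0.0073 without clone 17 replicate 5 and at most 0.95 with another array left out.

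Chosen after seeing the data were position 4 as a block (24 higher, and 1181 against clone 16), all 4 arrays at position 4 left out (314 lower, 436 higher, 2934 against clone 16, 2 against T+), position 1 as a block with clone 17 replicate 5 left out (119 and 114), the slide likewise, and both T+ and clone 17 replicate 5 left out (327 and 571). The other counts lay within 1.5 times, and the other list medians moved by less than the spread between the clone 17 arrays. Of the 39 named probes followed, only tryptophan 2,3-dioxygenase changed sign. The causes of these changes were not tested. A probe near background has only a bound, and the number of arrays limits the precision.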
